A study of Mus musculus with 8 samples.

Results

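Chromatin accessibility was examined at 7 genes of the tumor suppressor and p53 pathways, namely the cyclin-dependent kinase (CDK) inhibitor genes Cdkn2a, Cdkn2b, Cdkn1a and Cdkn1b, the p53 gene Trp53, its antagonist Mdm2, and the retinoblastoma gene Rb1. They were taken by name from 21755 protein-coding mouse genes. A peak was assigned to a gene when it overlapped the gene body or lay within 10 kb of an annotated transcription start site (TSS). The peaks of all 8 libraries merged into 183173 regions, and 46 of these lay in the windows of the 7 genes.

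The data were ATAC-seq peak lists, which mark where the Tn5 transposase could enter chromatin, from cell lines derived from mammary tumors of MMTV-PyMT mice (strain label FBV/N). All groups therefore carried the polyoma middle T oncogene, which in this model is driven by the mouse mammary tumor virus promoter. WT and Lats1-CKO lines, the latter lacking the Hippo pathway kinase gene Lats1, were sorted into luminal (EpCAM-high; CD49f-high) and basal-like (EpCAM-low; CD49f-high) cells and grown briefly after the sort. Each of the 4 groups had 2 libraries, which were BM1 with BM5 for WT luminal cells, BM2 with BM6 for WT basal-like cells, BM3 with BM7 for Lats1-CKO luminal cells, and BM4 with BM8 for Lats1-CKO basal-like cells. The labels do not say which libraries came from the same line, and the Cre driver of the deletion is not given in the sources used here. The labels name no drug or other treatment besides the sort.

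INK4 proteins, encoded by Cdkn2a and Cdkn2b, and CIP/KIP proteins, encoded by Cdkn1a and Cdkn1b, restrain the kinases that phosphorylate the retinoblastoma protein, which in its unphosphorylated form holds back E2F factors and entry into S phase. Cdkn2a also encodes p19Arf from a separate outer promoter, and p19Arf inhibits MDM2, the ubiquitin ligase that targets p53 for degradation. p53 binds a response element made of a pair of decamers and activates, among other genes, Cdkn1a and Mdm2, the latter through a promoter in its first intron.

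Elements of this kind were searched in the windows of the 7 genes as a pair of RRRCWWGYYY decamers (R is A or G, W is A or T, Y is C or T). A mismatch counted the same at every position, and elements with a spacer between the decamers were not sought. The sites that the later results refer to are shown here from the RefSeq GRCm38.p6 sequence, plus strand, with the element in capitals. The Mdm2 region 7037 bp upstream of the gene is shown whole (chr10:117717659-117717932), because it had a peak in all 8 libraries and holds an element with 1 mismatch (chr10:117717736-117717755). The elements at the Mdm2 intronic promoter (chr10:117710067-117710086, 3 mismatches) and in Rb1 intron 17 (chr14:73238053-73238072, 2 mismatches) also lay in regions. The elements upstream of Cdkn1a (chr17:29090928-29090947, within chr17:29090908-29090967) and in Cdkn2b (chr4:89308400-89308419, within chr4:89308380-89308439), each with 1 mismatch, lay in no region.
Mdm2 upstream region: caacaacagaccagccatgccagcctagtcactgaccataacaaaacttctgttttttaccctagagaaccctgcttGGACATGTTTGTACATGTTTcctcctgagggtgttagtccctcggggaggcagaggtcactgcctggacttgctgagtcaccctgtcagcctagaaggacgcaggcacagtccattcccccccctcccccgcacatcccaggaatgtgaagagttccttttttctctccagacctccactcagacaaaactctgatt
Mdm2 intronic promoter element: AGACATGTCAGGACTTAGCT
Rb1 intronic element: CAGCAAGCGCGAACATGCTT
Cdkn1a upstream element: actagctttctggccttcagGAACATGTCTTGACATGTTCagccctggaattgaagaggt
Cdkn2b element: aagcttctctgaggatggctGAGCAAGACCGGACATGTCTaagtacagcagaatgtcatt

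The part of the Cdkn2a outer promoter region that lies upstream of the TSS (chr4:89294654-89294889, plus strand, the gene being on the minus strand) is shown because 7 of 8 libraries had a peak there and the other library lacked every peak around it. Capitals mark an E2F motif (TTTCCCGC, here on the minus strand), 58 bp from the TSS, and 3 Sp1 motifs (GGGCGG, on the minus strand), 9, 213 and 217 bp from it, of which the last pair overlap.
Cdkn2a outer promoter: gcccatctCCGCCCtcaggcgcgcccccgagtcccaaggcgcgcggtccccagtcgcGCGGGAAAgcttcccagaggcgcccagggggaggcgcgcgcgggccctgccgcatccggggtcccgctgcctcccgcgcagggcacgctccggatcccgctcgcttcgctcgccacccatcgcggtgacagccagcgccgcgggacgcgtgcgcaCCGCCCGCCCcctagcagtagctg

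The libraries held between 14753 peaks (BM3) and 99022 (BM8), and without BM3 the lowest number was 51497 (BM6). A gene's peak number moves with the library's total, and the depth of each library is unknown because the lists hold no read counts, so no counting interval could be given. Of 16 luminal marker genes, 16 and 14 had a promoter peak in BM1 and BM5, 8 and 15 in BM3 and BM7, and 13, 10, 8 and 8 in BM2, BM6, BM4 and BM8. Of 14 basal marker genes, between 6 (BM3) and 11 (BM7) had one, so the basal list did not set the sorted populations apart. Of 8 fibroblast marker genes, 4, 3, 5 and 5 had one in the basal-like libraries BM2, BM6, BM4 and BM8 and 2, 3, 0 and 2 in the luminal libraries BM1, BM5, BM3 and BM7, and of 7 immune and 6 endothelial marker genes 0 to 5 and 0 to 3 had one. In promoter percentile, 2 of the 16 luminal markers, Krt18 and Cldn3, were lower in all Lats1-CKO than in all WT libraries. Over all genes with a promoter peak, 1.12% were apart between genotypes. Krt18 had no promoter peak in BM3, BM4 and BM8, and Cldn3 had none in BM4 and BM8. Of the 8 fibroblast markers, 2, Pdgfra and Pdgfrb, were higher in all basal-like than in all luminal libraries, against 0.933% of genes apart between populations. Pdgfrb had no promoter peak in any luminal library. Pdgfra was at 78.7 in both luminal BM1 and basal-like BM2 to the digits given. The part of these marker differences in the results on the 7 genes was not tested. The Lats1 promoter had a peak in all libraries but BM3, at percentiles of 53.6 to 81.5, and does not check the deletion. The study set aside a Lats1-CKO luminal replicate at quality control without naming it in the text used here, and the comparisons between genotypes and populations are given with and without BM3.

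The 7 genes together had 26, 22, 27 and 19 peaks in the WT libraries BM1, BM5, BM2 and BM6, 10 and 35 in the Lats1-CKO luminal libraries BM3 and BM7, and 19 (BM4) and 27 (BM8) in Lats1-CKO basal-like cells. Per 10000 peaks of the library this was 3.58 to 3.83 in the WT libraries and BM7, 6.78 in BM3, 2.73 in BM8 and 2.20 in BM4. BM3 was thus the lowest in number and the highest in proportion, and BM4 the lowest in proportion. All 7 genes had a promoter peak, here any peak no more than 1 kb away from a TSS, in BM1, BM2, BM6, BM7 and BM8, against 6 in BM5, 5 in BM4 and 4 in BM3. Of the 18524 genes with a peak in any library, 40.7% had a promoter peak in BM3, 59.8% in BM5 and 67.2% in BM4. In the other libraries 61.8% to 69.6% did. Peaks within 1 kb of any annotated TSS made up 56.4% of all peaks in BM3 and 24.2% to 33.2% elsewhere.

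Cdkn2a and Cdkn2b, neighbours on chromosome 4, were the only members without any peak in a library. Cdkn2a (ENSMUSG00000044303, GRCm38 chr4:89274471-89294653, minus strand) had 4 and 4 peaks in WT luminal, 5 and 3 in WT basal-like, 1 and 5 in Lats1-CKO luminal (BM3 and BM7) and 0 (BM4) and 4 (BM8) in Lats1-CKO basal-like libraries. Cdkn2b (ENSMUSG00000073802, chr4:89306299-89311039, minus strand), which encodes p15Ink4b, had 2 and 4, 3 and 3, 0 and 3, and 0 and 1 peaks in the same order. The Lats1-CKO libraries ranged wider than the WT libraries at both genes and overlapped them. Mean numbers were 2.50 ± 2.38 (SD, n = 4) in Lats1-CKO and 4.00 ± 0.816 in WT for Cdkn2a (exact permutation test, two-sided p = 0.40), and 1.00 ± 1.41 and 3.0 ± 0.816 for Cdkn2b (p = 0.114, the smallest of the members). The Cdkn2a difference of -1.50 became -0.667 without BM4 and -2.33 without BM7. The plot of peak numbers by library shows these counts beside those of the other members.

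**Figure D1:**
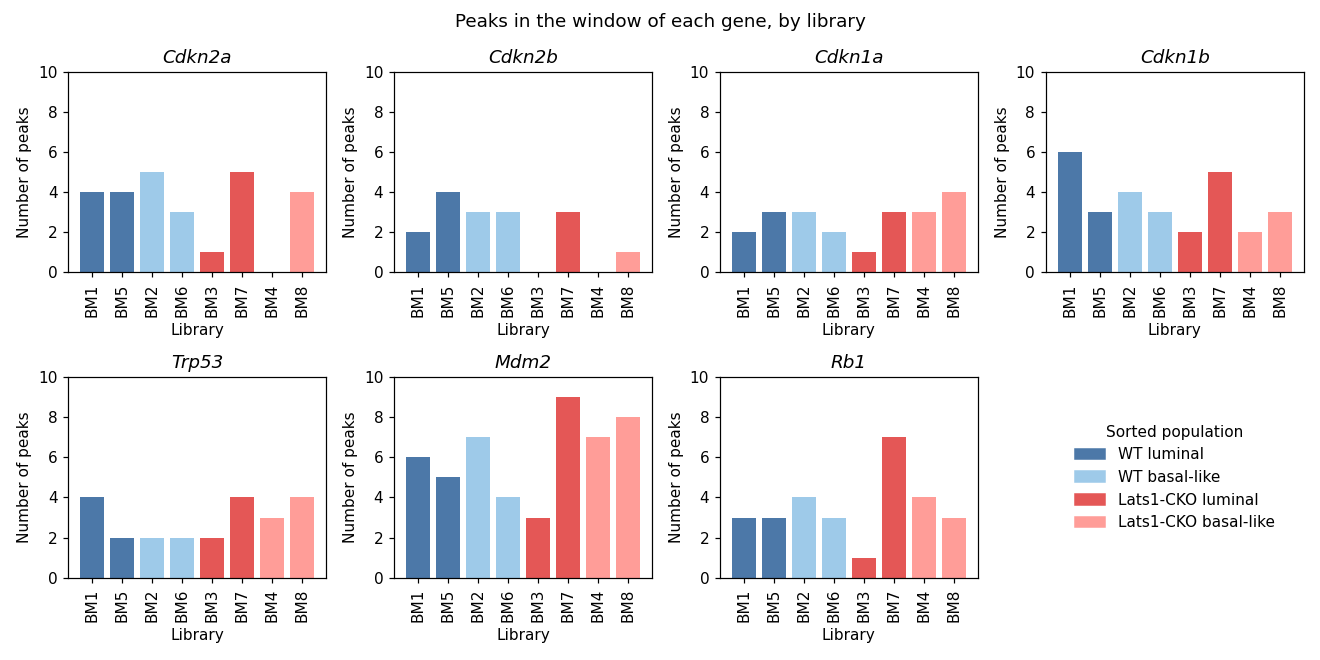
Number of peaks (vertical axis) in the window of each gene, 1 bar per library, ordered and coloured by sorted population. Cdkn2a and Cdkn2b have no bar in BM4, and Cdkn2b has none in BM3, while Mdm2 has between 3 and 9 peaks in every library.

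At Cdkn2a the accessible site shared between libraries was the outer promoter, where the p19Arf transcript starts. This region (chr4:89294536-89294889, covering the TSS and part of the 5′ UTR of that transcript) had a peak in every library but BM4. Its score percentile, the rank of the peak's score among all peaks of the same library, was 90.4 and 85.3 in WT luminal, 83.2 and 58.2 in WT basal-like, 38.6 and 88.2 in Lats1-CKO luminal (BM3 and BM7) and 81.4 in BM8. Without BM3 and BM4, the Lats1-CKO values of 88.2 and 81.4 lay within the WT range. The level of promoter percentiles itself differed between libraries. Over all genes with a promoter peak in the library, the median was 65.7 in BM3, 77.2 in BM2 and BM5, 79.4 in BM6 and 82.1 to 84.4 in the others. The inner promoter, where the p16Ink4a transcript starts (chr4:89282115-89282335), had a peak only in BM7 and BM8, at low percentiles of 6.84 and 18.5. These are both Lats1-CKO libraries and also the 2 libraries with the most peaks (93467 and 99022).

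An intron 2 region of Cdkn2a (chr4:89276095-89276515) was open in 5 libraries, at percentiles of 29.9 (BM1), 51.1 (BM2), 72.8 (BM6), 76.4 (BM7) and 63.9 (BM8). Between the 2 genes, a region 7692 bp upstream of Cdkn2a and 8694 bp downstream of the Cdkn2b TSS (chr4:89302214-89302477) had a peak in all WT libraries, at 77.5, 91.7, 88.6 and 53.4 in BM1, BM2, BM5 and BM6, and in BM7 at 76.4, and none in BM3, BM4 or BM8. This region counts for both genes.

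The Cdkn2b promoter region (chr4:89310548-89311213, covering the TSS and part of exon 1) was open in 6 libraries at percentiles of 82.2 and 66.0 in WT luminal, 79.8 and 71.6 in WT basal-like, 83.6 in BM7 and 69.4 in BM8. These values overlapped between WT and Lats1-CKO, and BM3 and BM4 had no peak. The element with 1 mismatch in Cdkn2b lay 2129 bp from the nearest region.

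The missing peaks in BM4 were not limited to the 2 genes. BM4 had no peak in chr4:88938613-89427934, a stretch of 489 kb that reaches 356 kb below and 133 kb above the outer Cdkn2a TSS in coordinates. In that stretch, BM1, BM2, BM5 and BM6 had 42, 48, 39 and 36 peaks, BM7 and BM8 had 63 and 60, and BM3 had 3. BM8, of the same sorted population and genotype as BM4, was thus among the 2 highest. The stretch was picked out after the peak lists had been seen and is given as a description.

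**Figure D2:**
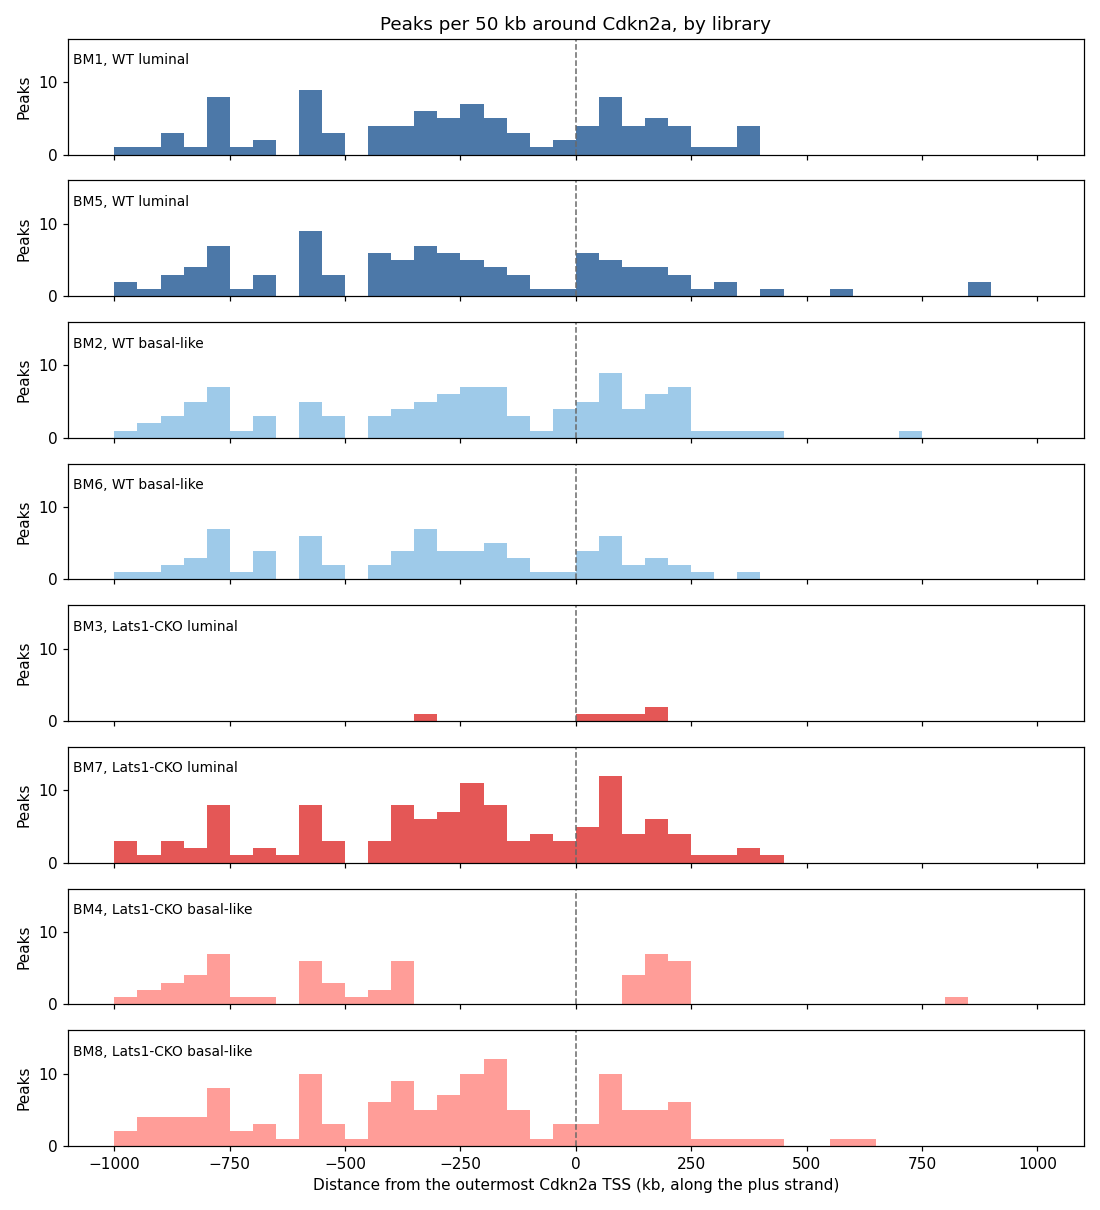
Number of peaks per 50 kb (vertical axes, same scale) against the distance from the outer Cdkn2a TSS (dashed line) in kb along the plus strand, 1 panel per library. BM4 has no peaks across 489 kb around the TSS, with peaks on either side, BM3 has 6 within 1 Mb, and the other 6 libraries have 77 to 135.

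Of the 92 merged regions in the stretch, 19 had a peak in all 6 libraries other than BM3 and BM4. Mtap, which encodes an enzyme of methionine salvage, is the third protein-coding gene there and, like Cdkn2a and Cdkn2b, had a promoter peak in all 6, at percentiles of 65.1 to 87.9. Across the genome, BM4 had a peak in 92.6% of the 24832 regions shared by those 6 libraries. The 19 consecutive shared regions at this locus were the longest run without a peak in BM4, and its next longest held 6. In the same count for each of the other 6 libraries, the longest run was 2 (BM7) to 6 (BM5).

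**Figure D3:**
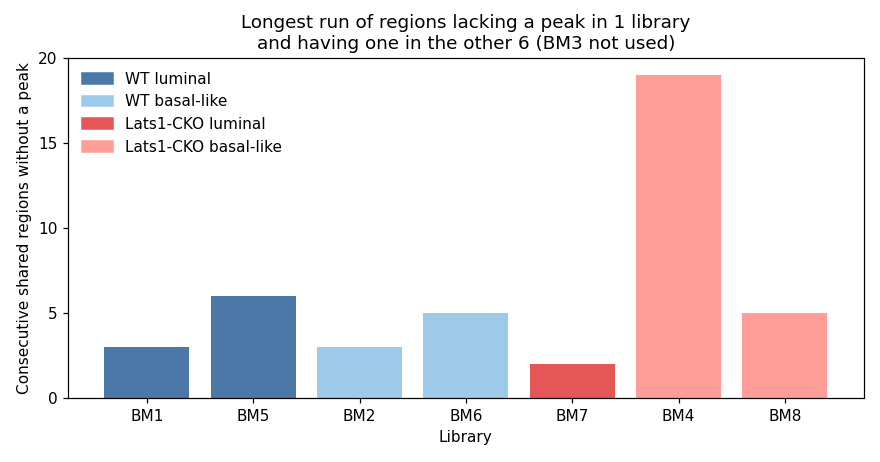
Length of the longest run of consecutive regions without a peak in the library on the horizontal axis and with a peak in the other 6 (vertical axis, number of regions), with BM3 left out. The bar for BM4 is the Cdkn2a locus, at 19 regions, and the others are 2 to 6.

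Within 1 Mb of the outer Cdkn2a TSS, BM4 had 6.37 peaks per 10000 of its peaks and BM3 had 4.07, against 12.9 to 17.0 in the other 6. In BM3 a peak was present in 3 of the 19 shared regions, against 45.3% of shared regions over the genome. At Cdkn1a, Trp53, Mdm2 and Cdkn1b the density in BM4 lay within the range of the other libraries, though at Cdkn1a (18.8) only BM3 was higher, and at Rb1 it was the highest of all (10.2, against 6.78 to 9.63). Chromosome 4 as a whole held 4.48% of the peaks of BM4 and 5.00% to 6.76% in the others. The lists hold no coverage between peaks, so the amount of DNA from this stretch in BM4 was not measured, and its part in the missing peaks was not tested.

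Cdkn1a (ENSMUSG00000023067, chr17:29090976-29100727, plus strand) encodes p21, the CDK inhibitor induced by p53. It had 2 and 3 peaks in WT luminal, 3 and 2 in WT basal-like, 1 and 3 in Lats1-CKO luminal and 3 and 4 in Lats1-CKO basal-like libraries. The groups overlapped, and the mean of 2.75 ± 1.26 in Lats1-CKO against 2.50 ± 0.577 (SD, n = 4 each) in WT differed by less than the spread (exact permutation p = 1.000).

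The peaks at Cdkn1a clustered downstream of the outermost TSS. The inner promoter region (chr17:29093566-29093849, covering part of the 5′ UTR in exon 1 of a protein-coding transcript) was open in every library but BM3, at 80.0 and 79.0 in WT luminal, 65.9 and 47.1 in WT basal-like, 87.5 in BM7, and 63.8 and 83.3 in BM4 and BM8. The site with the highest median percentile (91.2) lay in intron 1 (chr17:29095198-29095688), with a peak in all 8 libraries at 95.5, 90.4, 85.4 and 92.1 in WT (BM1, BM5, BM2 and BM6), 84.3 in BM7, 94.5 and 96.0 in BM4 and BM8, and 24.3 in BM3. Apart from BM3, these values spanned 84.3 to 96.0 with both genotypes and populations interleaved. No library had a peak at the outermost TSS. The p53 element with 1 mismatch, 39 bp upstream of that TSS, lay 2619 bp from the nearest region. The inner promoter and intron 1 regions both lie within 1 kb of a TSS of AC167363.2, another annotated gene. Their peaks therefore cannot be assigned to Cdkn1a alone.

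Cdkn1b (ENSMUSG00000003031, chr6:134920401-134925513, plus strand) encodes p27, a CDK inhibitor of quiescent cells. It had 6 and 3 peaks in WT luminal, 4 and 3 in WT basal-like, 2 and 5 in Lats1-CKO luminal and 2 and 3 in Lats1-CKO basal-like libraries. Means were 3.0 ± 1.41 in Lats1-CKO and 4.00 ± 1.41 (SD, n = 4 each) in WT, with overlap (exact permutation p = 0.486). The difference of -1.0 was -0.333 without BM1, -0.667 without BM3 or BM4 and -1.67 without BM7. Its promoter (chr6:134920049-134920798, over the TSS and 5′ UTR) was open in all 8 libraries, at 85.3 and 72.8 in WT luminal, 85.3 and 73.9 in WT basal-like, 65.7 and 94.1 in Lats1-CKO luminal and 80.7 and 84.3 in Lats1-CKO basal-like. A region 8077 bp downstream of the nearest Cdkn1b TSS (chr6:134928301-134928879), within 1 kb of a TSS of Lockd, a noncoding RNA gene, was also open in all 8, at 66.1 (BM2) to 90.9 (BM6). Of the 9 member regions open in all 8 libraries, it was the only one without its lowest percentile in BM3, where it was 82.4.

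Trp53 (ENSMUSG00000059552, chr11:69580359-69591873, plus strand) had 4 and 2 peaks in WT luminal, 2 and 2 in WT basal-like, 2 and 4 in Lats1-CKO luminal and 3 and 4 in Lats1-CKO basal-like libraries (3.25 ± 0.957 against 2.50 ± 1.00 in WT, SD, n = 4 each, exact permutation p = 0.486). The region with the highest median percentile of the gene (89.1) lay 1050 bp upstream of the TSS (chr11:69579119-69579500), at 88.9 and 79.8 in WT luminal, 92.1 and 89.4 in WT basal-like, 62.9 and 89.8 in Lats1-CKO luminal and 88.1 and 94.0 in Lats1-CKO basal-like. It lies in Wrap53, a gene that begins on the other strand beside Trp53, and within 1 kb of a TSS of that gene, so the peak cannot be assigned to Trp53 alone. The TSS itself (chr11:69580214-69580406) had a peak only in BM1, BM7 and BM8, at 46.2, 45.9 and 35.8. An intron 1 region (chr11:69581451-69581623) was open in all 8 libraries, at 74.0, 61.7, 37.8 and 65.1 in BM1, BM2, BM5 and BM6, 12.9 and 79.3 in BM3 and BM7, and 88.3 and 92.5 in BM4 and BM8. There the Lats1-CKO basal-like libraries held the highest values of all 8, an order also seen at the region upstream of Mdm2. None of the other member regions open in all 8 libraries had this order. At the Mdm2 upstream promoter the highest value was 91.5 in BM6, and at Rb1 intron 17 it was 96.5 in BM7. The share of all regions with this order was not counted.

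Mdm2 (ENSMUSG00000020184, chr10:117688875-117710758, minus strand) had the most peaks of the members in every library or shared that place, with 6 and 5 in WT luminal, 7 and 4 in WT basal-like, 3 and 9 in Lats1-CKO luminal and 7 and 8 in Lats1-CKO basal-like libraries. The groups overlapped, at 6.75 ± 2.63 in Lats1-CKO against 5.50 ± 1.29 (SD, n = 4 each) in WT (exact permutation p = 0.514). Without BM3 the Lats1-CKO libraries had 7, 8 and 9 peaks against 4 to 7 in WT, and the difference went from 1.25 to 2.50 without passing the test (exact permutation p = 0.086), while it was 0.750 without BM6 and 0.50 without BM7. The upstream promoter (chr10:117710627-117710989, over the outermost TSS and 5′ UTR) was open in all 8 libraries, at 88.4 and 75.9 in WT luminal, 78.5 and 91.5 in WT basal-like, 75.8 and 86.6 in Lats1-CKO luminal and 88.5 and 90.0 in Lats1-CKO basal-like. The intronic promoter (chr10:117709937-117710324, intron 1 and part of exon 2 with 5′ UTR), which holds the printed element with 3 mismatches, was open in every library but BM3, at 76.9 (BM6) to 93.4 (BM8).

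The region upstream of Mdm2 printed above ranked higher than either promoter in BM1, BM2, BM4 and BM8. It was at 93.1 and 87.8 in WT luminal, 93.4 and 83.2 in WT basal-like, 36.0 and 91.0 in Lats1-CKO luminal and 97.3 and 94.9 in Lats1-CKO basal-like. Its 97.3 in BM4 was the highest percentile of any member region. Both Lats1-CKO basal-like values lay above those of all other libraries, while the genotypes overlapped, as did the populations. Past the 3′ end of the gene, a region at chr10:117688327-117688487 was open in all 8 libraries, at 31.4 (BM3) to 89.6 (BM6).

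Rb1 (ENSMUSG00000022105, chr14:73183673-73325822, minus strand), the longest member, had 3 and 3 peaks in WT luminal, 4 and 3 in WT basal-like, 1 and 7 in Lats1-CKO luminal and 4 and 3 in Lats1-CKO basal-like libraries. Means were 3.75 ± 2.50 in Lats1-CKO and 3.25 ± 0.50 (SD, n = 4 each) in WT (exact permutation p = 0.83). The promoter (chr14:73325633-73326270, over the TSS and 5′ UTR) was open in 6 libraries, at 77.5 in BM1, 34.6 and 55.8 in WT basal-like, 82.7 in BM7 and 72.4 and 59.6 in Lats1-CKO basal-like. BM5 and BM3 had no peak there, so that a WT and a Lats1-CKO luminal library lacked it. The site open in all 8 libraries lay in intron 17 (chr14:73237785-73238098), at 92.5 and 63.9 in WT luminal, 91.3 and 90.2 in WT basal-like, 24.3 and 96.5 in Lats1-CKO luminal and 86.6 and 72.7 in Lats1-CKO basal-like. It lies within Lpar6, a lysophosphatidic acid receptor gene nested in Rb1, and within 1 kb of a TSS of that gene. Of the 12 regions at Rb1, 9 had a peak in a single library.

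**Figure D4:**
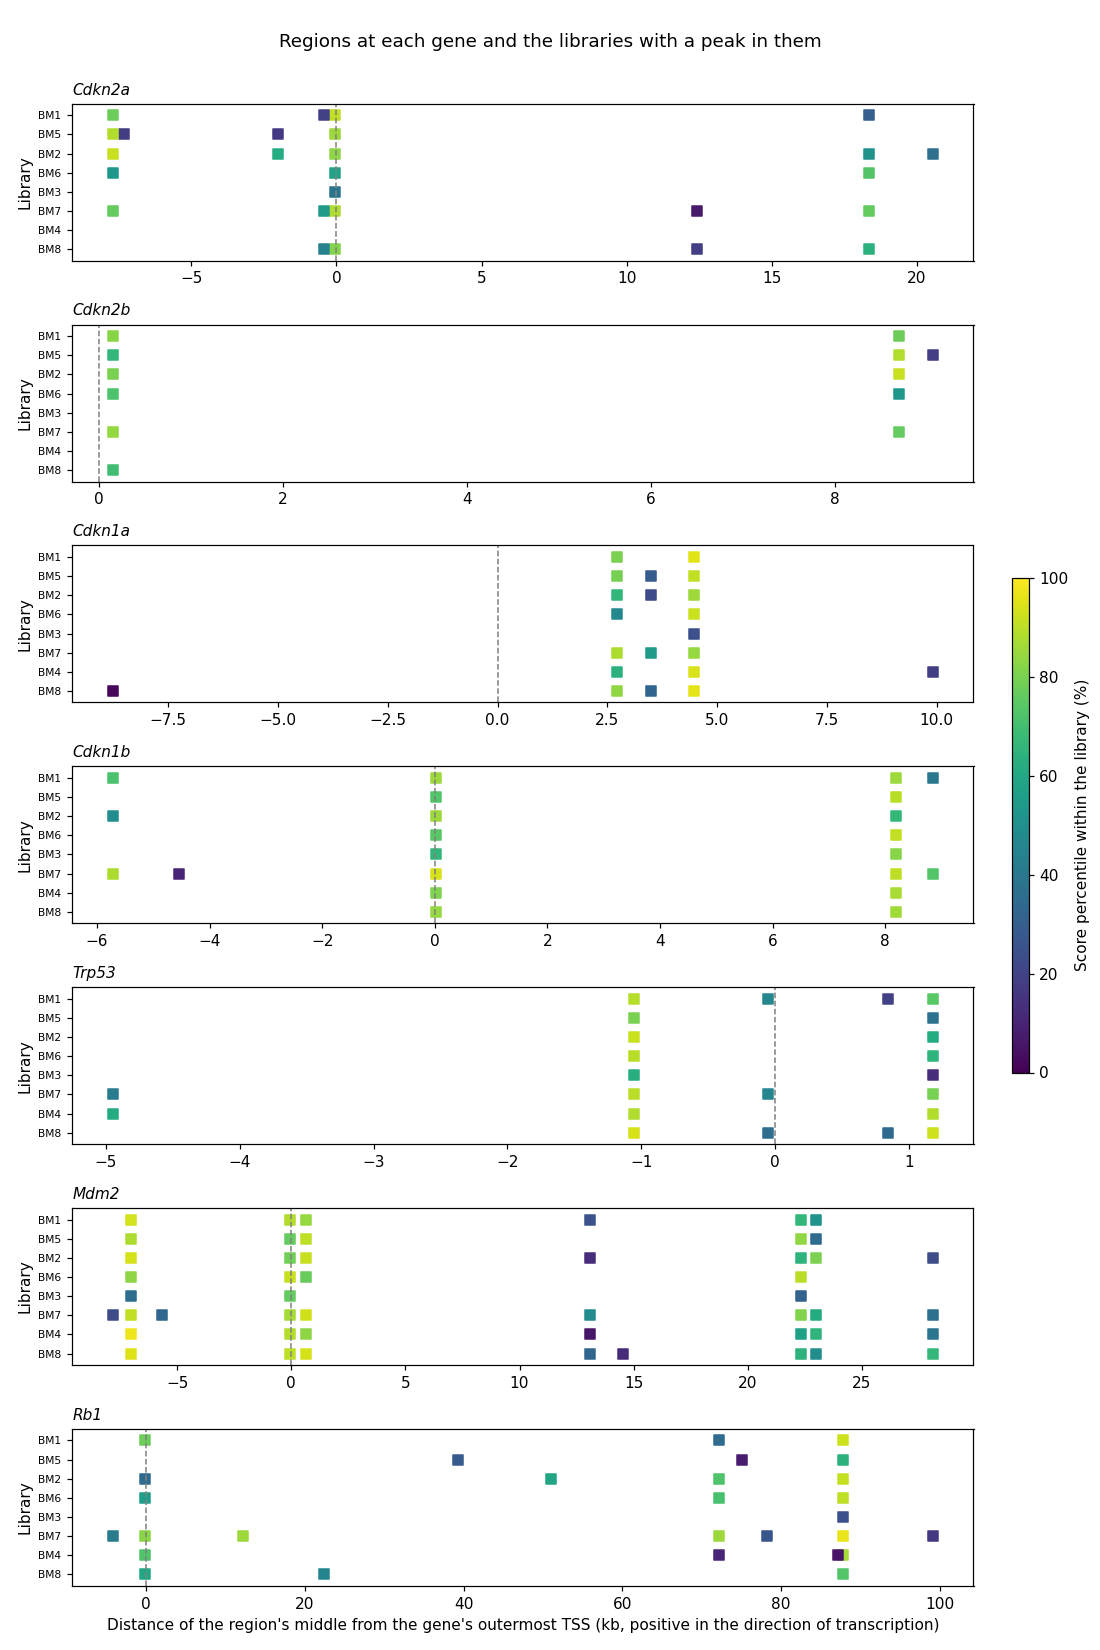
Regions at each gene by distance of their middle from the outermost TSS (horizontal axes, kb, differing between panels) and library (vertical axes), each square being a region with a peak, coloured by score percentile. Columns of 8 squares are regions open in all libraries, as at Mdm2 and Cdkn1b, and the row of BM4 is empty at Cdkn2a and Cdkn2b.

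Across the 46 regions of the 7 genes, 9 (19.6%) had a peak in all 8 libraries and 17 (37.0%) in only 1, against 5.95% and 44.5% of all 183173 regions. Among regions within 1 kb of any TSS the share open in all 8 was 6 of 19 (31.6%) for the members and 19.6% for all. Of the 17 regions with a peak in a single library, BM7 held 7, BM5 and BM8 3 each, and BM2 and BM4 2 each. BM7 thus held 41.2% of them, against 16.9% of the regions found in a single library over the genome, where BM8 (26.0%) and BM4 (24.7%) held the most.

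A p53 element with at most 2 mismatches occurred 18 times in the member windows, and 3 of these, a pair of overlapping matches at Mdm2 and the match at Rb1, lay in a region, each open in all 8 libraries. Of the 6 with 1 mismatch, only the Mdm2 upstream element lay in a region. Shares of regions were counted in the 400 bp around the middle of each region, on both strands. The median region width was 153 bp, so this stretch often reached beyond the region. In it, 2 of the 46 member regions (4.35%) had an element with at most 2 mismatches, against 1.90% of all regions. With up to 3 mismatches 9 (19.6%) did, against 11.3%. The motif shares that follow use the same stretch. E2F motifs (TTTCCCGC or TTTGGCGC) were found at the Cdkn2a outer promoter and the Rb1 promoter, 2 of 46 regions (4.35%) against 0.825% of all. The Sp1 motif (GGGCGG) was in 34.8% of member regions and 14.8% of all, the NF-Y motif (CCAAT) in 41.3% and 41.6%, the AP-1 motif (TGANTCA) in 23.9% and 31.7%, and the TEAD motif (GGAATG) in 19.6% and 25.5%. Members had more regions near a TSS than the genome (19 of 46), and among regions within 1 kb of a TSS the shares were 26.3% and 8.72% for p53 elements with up to 3 mismatches, 10.5% and 2.39% for E2F, 57.9% and 46.4% for Sp1, 47.4% and 37.6% for NF-Y, 21.1% and 16.7% for AP-1, and 10.5% and 19.1% for TEAD. For AP-1 the order of members and genome was thus the opposite near a TSS, as it was for NF-Y, whose shares over all regions were nearly equal. Of the 19 member regions near a TSS, 5 had the p53 element in this stretch, 2 E2F, 11 Sp1, 9 NF-Y, 4 AP-1 and 2 TEAD. A match describes the sequence only, and binding was not measured.

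The comparison of genotypes asked whether all 4 Lats1-CKO libraries lay above or below all 4 WT libraries. For peak numbers, 0 of the 7 members were apart, against 0.0972% of the 18524 genes with a peak in any library, and 0 of 7 members had an unadjusted p under 0.05. With 70 possible splits the smallest exact two-sided p is 0.029, and after Benjamini-Hochberg adjustment over all genes tested no gene was below 1.00. Of the 18524 genes, 18 had an unadjusted p under 0.05. For the highest promoter percentile, 0 of 7 were apart, against 1.12% of the 14571 genes with a promoter peak in any library. Leaving out BM3 raised these background shares to 11.3% and 11.1% and left 0 of 7 members apart in both. Without BM3, the difference in mean peak numbers (Lats1-CKO minus WT) rose from 0.750 to 1.17 for Trp53, from 0.50 to 1.42 for Rb1 and from 0.250 to 0.833 for Cdkn1a. It shrank from -1.50 to -1.0 for Cdkn2a and from -2.0 to -1.67 for Cdkn2b, and the exact permutation p of the 7 members ranged from 0.086 (Mdm2) to 0.686 (Cdkn2a). Leaving out BM7 set Cdkn2b apart in peak numbers (lower in Lats1-CKO, 0, 0 and 1 against 2 to 4), where the background was 0.637%. The values of 0 were those of BM3, the library with the fewest peaks, and BM4, where Cdkn2b lies in the stretch without peaks. Without BM4 the Cdkn2b difference was -1.67 (exact permutation p = 0.200).

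For populations, 0 of 7 members were apart between basal-like and luminal libraries in peak numbers (background 0.259%) or promoter percentile (background 0.933%). Exact permutation p values for peak numbers were 0.486 or above (two-sided, n = 4 each). With BM3 left out, 0 of 7 members were apart in peak numbers (background 0.734%), and the exact permutation p values were 0.200 (Cdkn1b) or above. Without BM3, the Cdkn2a promoter percentile was apart, with the luminal libraries at 90.4, 85.3 and 88.2 and the basal-like libraries at 83.2, 58.2, 81.4 and 0 (no peak, BM4), where 3.61% of genes were apart. Without BM3 the lower end of the luminal values, 85.3, and the upper end of the basal-like values, 83.2, were close.

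**Figure D5:**
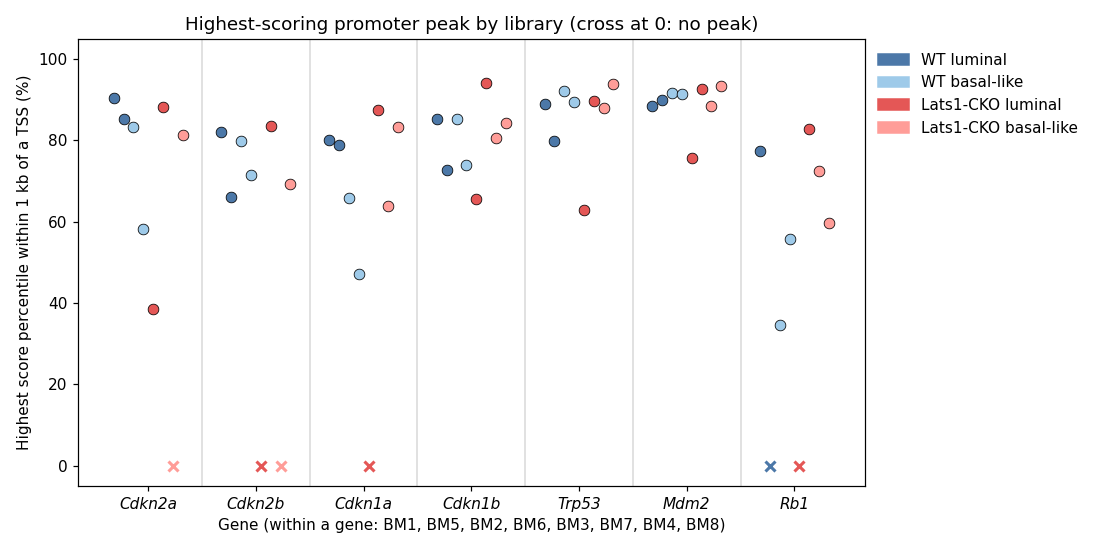
Highest score percentile among promoter peaks (vertical axis, percent) for each gene, 1 point per library coloured by sorted population, with a cross at 0 where there was no such peak. Mdm2 values sit between 75.8 and 93.4 in all libraries, whereas Cdkn2a, Cdkn2b, Cdkn1a and Rb1 each lack a peak in at least 1.

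Among the related genes, the lists held 16 p53 regulators and relatives, 32 p53 target genes and 24 genes of the RB pathway, all of which were found in the annotation. Cdk4, whose kinase is the target of INK4 proteins, was the only gene of these lists whose peak numbers did not overlap between genotypes, with 6, 6, 8 and 6 peaks in WT (BM1, BM5, BM2 and BM6) and 5, 5, 4 and 4 in Lats1-CKO (BM3, BM7, BM4 and BM8). The difference of -2.0 had an exact permutation p of 0.029 and an adjusted p of 1.00 over all genes, and the background share for this call was 0.0972%. Per 10000 peaks of the library the difference turned to 0.161 (exact permutation p = 1.000), with BM3 the highest of all at 3.39, and when only the 10000 highest-scoring peaks per library were used it turned to 0.750 (p = 0.886). No gene of the 3 lists was apart between populations or in promoter percentile. In BM4, 15 of 16 regulators, 31 of 32 targets and 22 of 24 RB pathway genes had a promoter peak, and the other libraries apart from BM3 had 13 to 14, 27 to 32 and 21 to 24. Over all genes with a peak in any library, 67.2% had a promoter peak in BM4 and 59.8% to 69.6% in these other libraries.

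The pathway genes most like each member in promoter percentile were named by the mean absolute difference over the 8 libraries, among 72 genes. The closest were Ddb2, a DNA damage recognition gene, to Trp53 (3.56 percentage points), Kat5 to Rb1 (4.95), Phlda3 to Cdkn1b (4.96), Atm, a DNA damage kinase gene, to Mdm2 (5.39) and Cdk6 to Cdkn1a (5.72). Cdkn2a and Cdkn2b had no such close match, the nearest being E2f2 (11.4) and Cdk6 (12.6), which had a promoter peak in BM4 at 32.7 and 44.4. Rb1 and Kat5 both lacked a promoter peak in BM3 and BM5. Genes outside the lists were not compared, so these distances cannot show a likeness particular to the pathways.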

How the data were processed

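ATAC-seq peaks were analysed in 8 libraries of sorted cells. Per the study's methods and the submitters' processing notes, the authors trimmed reads with cutadapt, aligned them uniquely to mm10 (Bowtie 1.0.0), removed mitochondrial reads, duplicates (Picard 2.3.0) and long fragments, called peaks per library with MACS2 (2.1.1.20160309 in the notes, another version in the methods) and removed blacklisted regions. The deposited lists give positions and a MACS2 score. Scores are not normalized between libraries, so each was converted to its percentile within the library. Such percentiles still depend on the peak set of each library. The fragment and uniqueness filters limit what could be called, and reads were not analysed here, so the study's count-based comparison was not repeated.

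The annotation was GENCODE M21 and the genome sequence RefSeq GRCm38.p6, both on the build the authors used. An overlap of 1 bp assigned a peak to a window, and overlapping or touching peaks were merged into regions. A gene was called where all libraries of a group lay above all of the other. Peak numbers were compared by two-sided exact permutation tests, adjusted by Benjamini-Hochberg over all genes tested, with scipy 1.17.1, pysam 0.24.0 and numpy 2.4.6 under Python 3.11.15. The code was tested on simulated data. The study gives 2 biological replicates per group. P-values measure the spread between libraries, part of which may be technical. Tests by genotype ignored the population and tests by population ignored the genotype, so SDs and p-values also hold differences of the ignored factor.

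Members and lists were chosen with earlier results of these data known. Genes named were the members and non-overlapping genes of the pathway lists (at most 5 per list and contrast). Also named were the pathway genes nearest each member in promoter percentile, genes with a TSS within 1 kb of a member region described above, and Lats1. Mtap, the long stretch without peaks in BM4 and the runs of absent regions were chosen after values were seen. Alternatives left out each library and changed the peak threshold, window, overlap, scaling and percentile.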

Additional observations from a re-analysis of the deposited data

Results flagged for a closer look

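In 56 groups of 4 libraries (7 genes, 2 measures, both genotypes and both populations), a library was marked when its gap to the nearest other, divided by the range, passed Dixon's critical value for 4 values. In all, 5 were marked. The critical value marks about 1 in 20 groups of continuous, normally distributed values. Peak numbers with ties and percentiles of 0 are not of this kind, and each library enters both a genotype and a population group. The 5 marked groups are therefore not compared with a chance rate. Where all other counts are equal, a differing library is always marked, as at Trp53 and Rb1. Trp53 had 4.00 peaks in BM1 against 2 in each of the other WT libraries, and Rb1 had 4.00 in BM2 against 3 in each. The Cdkn2a promoter percentile was 38.6 in BM3 against 85.3 to 90.4 in the other luminal libraries. BM3 is the library with the fewest peaks. The Cdkn1a promoter percentile was 0 (no peak) in BM3 against 79.0 to 87.5 in the other luminal libraries. The Cdkn2b promoter percentile was 0 in BM4 against 69.4 to 79.8 in the other basal-like libraries, and this promoter lies in the stretch of 489 kb where BM4 had no peak.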

How the results depend on the processing

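The number of members apart between groups was 0 in every setting for both measures and contrasts, except when BM7 was left out (Cdkn2b, peak numbers by genotype) or BM3 was left out (Cdkn2a, promoter percentile by population). Leaving out each library gave 0 to 1 in these 2 results. Differences in peak numbers (first group Lats1-CKO or basal-like) passed no test with all 8 libraries. Of 196 alternatives, 23 changed sign, none of them for Cdkn2b by genotype, and 1 passed an unadjusted exact p of 0.05, which was Cdkn2b without BM7 (-2.67, p = 0.029). By genotype, the 10000 highest-scoring peaks gave -0.250 for Cdkn1a and Mdm2, 0.50 for Cdkn1b and -0.50 for Rb1. Peaks above the median score gave -0.50 for Mdm2 and -0.250 for Rb1, and a window of 1 kb gave 0.50 for Cdkn2a and -0.250 for Cdkn1a and Mdm2. By population, the highest-scoring peaks gave 0.250 for Trp53, peaks above the median 0.250 for Cdkn2a and 0.750 for Trp53, the 1 kb window 0.250 for Cdkn1b, and scaling per 10000 peaks -0.0546 for Cdkn1a and -0.321 for Mdm2. Leaving out each library gave by genotype -0.167 to 0.833 for Cdkn1a (lowest without BM8) and -0.583 to 1.42 for Rb1 (lowest without BM7). By population it gave -1.33 to 0.50 for Cdkn2a (highest without BM4), -1.25 to 0.0833 for Cdkn2b (highest without BM4 or BM5), -0.167 to 1.83 for Mdm2 (lowest without BM3) and -0.667 to 0.0833 for Trp53 (highest without BM1 or BM7). For Cdk4, examined after its call was seen, the difference by genotype of -2.0 turned to 0.161 per 10000 peaks and to 0.750 with the 10000 highest-scoring peaks, and was -1.25 and -1.0, no longer past the test, with peaks above the median score and with the 1 kb window. The cause of these changes was not tested. Promoter percentile differences moved by more than the spread in 4 of 182 alternatives, all with the 10000 highest-scoring peaks. Sign changes smaller than this spread were not counted, unlike for peak numbers, and several occurred. By genotype without BM3, the difference went from -9.37 to 10.2 for Cdkn1a, from -3.87 to 3.05 for Trp53 and from -2.82 to 1.09 for Mdm2. By genotype with the 5 kb window it went from 11.7 to -14.5 for Rb1. By population without BM4 it went from -2.77 to 15.6 for Cdkn2b. No paired analysis was possible because the labels give no replicate numbers. The lists hold no reads, so depth per library is unknown and sites without a peak were not shown to be closed.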
